A study of Homo sapiens with 3 samples.

Results

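The genes of the transcription factor NF-κB itself were followed in HSC-3, a human cell line from a squamous carcinoma of the tongue. The group holds the subunit genes RELA, RELB, REL, NFKB1 and NFKB2, the inhibitor genes NFKBIA, NFKBIB and NFKBIE, and the feedback genes TNFAIP3 and BIRC3. Members were all probes that carry 1 of these 10 gene symbols in the platform's probe-to-gene table, which gave 12 of 24454 probes and 10 of 17556 genes. REL and NFKB2 each had a pair of probes and the other genes 1 probe each. Each of 3 cultures gave 1 array of amplified RNA coupled to Cy5: cells left without transfection, cells given a plasmid for GFP (green fluorescent protein), and cells given a plasmid for full-length DKK3 with an HA tag. RNA was taken 24 hours after transfection from medium with 10% serum. DKK3 is a secreted glycoprotein of the Dickkopf family. The labels are not uniform: a mouse muscle line, C2C12, appears in the treatment text, whereas HSC-3 stands in every title, description and source name.

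NF-κB works as pairs of Rel proteins that bind short DNA elements called κB sites. In resting cells the pairs are held in the cytoplasm by inhibitors of the IκB family, and signals from cytokine receptors or nucleic acid sensors free them by way of the IκB kinase. Many genes of the system are targets of NF-κB in their own right, so their mRNA levels are widely read as traces of its activity. Squamous carcinoma cells are known for making inflammatory chemokines under this control.

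Each group was 1 array. There was thus no spread between replicates, no test and no p-value, and precision is limited by having so few arrays. A spot was called detected above the mean plus 2 SD of the 2680 blank spots, a limit between 34.2 and 41.0 intensity units on the 3 arrays. The DKK3 array was the dimmest, with a mean of 32496 units over the 24 spots of the brighter positive control against 40638 without transfection and 41192 with GFP, so differences were taken after normalization and raw intensities are given as they were scanned. As a measure of technical error, the log2 difference between arrays over the 24 spots of the more variable of both positive controls had an SD of 0.137 for GFP against untransfected, 0.154 for DKK3 against untransfected and 0.181 for DKK3 against GFP. This SD was taken on scanned intensities, without offset or normalization, from spots far brighter than any member spot. It is therefore a rough yardstick for the normalized differences of dim spots. The robust SD of normalized differences over all detected probes, which also holds differences between the cultures, was 0.084, 0.080 and 0.085 in the same order. DKK3 itself, on 1 probe, read 539 units without transfection, 749 with GFP and 64328 with DKK3, in keeping with the labels. All 8 squamous markers were detected on all 3 arrays, with a summed intensity above blanks of 46661, 49104 and 38670 in that order. The summed intensities of the leukocyte, fibroblast, endothelial and skeletal muscle lists were each at most 384. Of the leukocyte markers 4 of 5 on the array were detected on all 3 arrays, among them CD68 at 277, 350 and 324 units, and PTPRC on none. Of the muscle markers 5 of 7 were detected on all 3 arrays and MYF5 on none, of the fibroblast markers 2 of 6, and of the endothelial markers 2 of 4. CD68 stood 0.29 above untransfected cells on the log2 scale with GFP and 0.34 with DKK3, and its part in the results was not tested.

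Promoters of the members are shown because most of these genes are known targets of the factor they encode. RefSeq windows of 300 bases on GRCh38.p14, from 250 before to 50 after an annotated start, were at hand for 8 of the 10 genes in 13 windows. RELB and NFKBIE had no entry. The κB consensus was found, on either strand and with overlapping matches merged, in 8 of 13 windows and in 7 of 8 genes, against 11.3% of all 35116 windows. The looser pattern GGGNNNNNCC, where N is any base and both strands were read, was in 13 of 13 windows and in 58.7% of all windows, and every match of the consensus also holds it. A match is only a description of letters. The windows of both feedback genes, of the inhibitor NFKBIA, of NFKB1 and of RELA follow, 5′ to 3′ on the strand of the gene, with matches to the consensus in capitals.
TNFAIP3, chr6:137867009-137867308, plus strand: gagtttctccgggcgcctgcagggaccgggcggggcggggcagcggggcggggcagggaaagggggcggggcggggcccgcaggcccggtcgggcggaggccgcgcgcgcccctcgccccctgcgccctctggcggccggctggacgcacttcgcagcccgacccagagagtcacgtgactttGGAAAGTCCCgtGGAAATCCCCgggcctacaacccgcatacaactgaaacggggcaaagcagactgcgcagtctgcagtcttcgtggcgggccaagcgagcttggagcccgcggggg
BIRC3, chr11:102317234-102317533, plus strand: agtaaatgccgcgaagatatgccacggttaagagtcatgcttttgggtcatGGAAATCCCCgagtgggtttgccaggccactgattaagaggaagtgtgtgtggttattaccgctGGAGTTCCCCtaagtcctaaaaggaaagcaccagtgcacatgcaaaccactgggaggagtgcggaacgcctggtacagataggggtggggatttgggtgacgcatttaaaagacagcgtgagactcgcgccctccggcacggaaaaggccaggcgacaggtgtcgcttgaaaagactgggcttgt
NFKBIA, chr14:35404700-35404999, minus strand: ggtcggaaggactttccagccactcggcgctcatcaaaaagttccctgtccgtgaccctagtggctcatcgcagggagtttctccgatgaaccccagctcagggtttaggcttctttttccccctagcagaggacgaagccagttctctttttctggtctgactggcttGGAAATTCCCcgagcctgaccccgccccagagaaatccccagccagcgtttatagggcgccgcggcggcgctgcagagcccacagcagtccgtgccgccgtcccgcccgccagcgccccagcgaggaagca
NFKB1, chr4:102501109-102501408, plus strand: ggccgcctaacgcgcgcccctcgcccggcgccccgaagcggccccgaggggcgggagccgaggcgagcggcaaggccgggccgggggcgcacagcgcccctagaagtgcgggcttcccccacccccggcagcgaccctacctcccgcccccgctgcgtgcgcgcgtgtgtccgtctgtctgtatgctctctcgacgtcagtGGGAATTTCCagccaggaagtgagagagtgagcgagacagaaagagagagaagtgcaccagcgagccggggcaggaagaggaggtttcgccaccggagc
RELA, chr11:65662867-65663166, minus strand: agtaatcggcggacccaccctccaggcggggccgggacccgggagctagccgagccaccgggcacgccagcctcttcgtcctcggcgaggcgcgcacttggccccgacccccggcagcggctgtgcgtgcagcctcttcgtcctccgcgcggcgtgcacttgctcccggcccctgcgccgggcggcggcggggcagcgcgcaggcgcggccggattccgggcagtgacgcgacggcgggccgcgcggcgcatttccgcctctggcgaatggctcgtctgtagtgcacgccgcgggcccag
TNFAIP3 and BIRC3 held 2 matches each, NFKBIA and NFKB1 held 1, and neither of the RELA windows held any. The first TNFAIP3 match began 67 bases before the start and the second 55 bases before it. The BIRC3 matches began 199 and 135 bases before the start, the NFKBIA match 81 and the NFKB1 match 49. Among windows not printed, REL held GGGAAATTCCC, NFKB2 held GGGAATTCCCC and GGGGCTTTCC in 1 window and GGGGCTTCCC and GGGACTTTCC in another, and NFKBIB held GGGAATTTCCC and GGGGGGCCCC.

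TNFAIP3 and BIRC3, the feedback genes, stood furthest above the untransfected array among the members with DKK3, and both had the order untransfected, GFP, DKK3. TNFAIP3 encodes a ubiquitin-editing enzyme that shuts the pathway down upstream of the IκB kinase. Its spot, in block 13 of the array's 24 printing blocks, read 396 intensity units without transfection, 594 with GFP and 752 with DKK3. The 3 values were spaced widely, and each step exceeded the SD of the positive control. The normalized difference from untransfected cells was 0.51 on the log2 scale with GFP, or 1.43-fold, and 1.03 with DKK3, or 2.04-fold. Between DKK3 and GFP it was 0.52, or 1.43-fold. By size, these differences ranked 174, 51 and 159 among 17964, 18016 and 17471 detected probes. Since the cultures were measured in bulk, more responding cells and more mRNA per cell cannot be told apart here or in any later value.

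BIRC3 encodes a ubiquitin ligase of TNF receptor complexes that limits cell death and the alternative NF-κB pathway. Its spot in block 17 read 65.0 units without transfection, 88.3 with GFP and 115 with DKK3. After subtraction of the blank mean these were 28.7, 60.2 and 82.7 units, against a blank SD of 2.34, 3.03 and 2.27. The 3 readings lay many blank SDs apart. That SD is the spread of empty spots within an array. It holds neither the differences in brightness between arrays nor a spread between cultures. The normalized difference was 0.43 with GFP and 0.81 with DKK3 against untransfected cells, and 0.38 between DKK3 and GFP. The probe is dim, and the offset of 50 units added before the logarithm compresses such differences. With the blank mean subtracted and no offset, the same differences were 1.004, 1.68 and 0.68, and BIRC3 then exceeded TNFAIP3, which stood at 1.14 for DKK3 against untransfected cells.

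Both genes differed from their surroundings on the array as well. The detected spots up to 5 columns and 1 row away from TNFAIP3 numbered 25 and reached at most 0.29 for DKK3 against untransfected and 0.20 for DKK3 against GFP. Around BIRC3 there were 16 such spots, which reached at most 0.27 and 0.14. TNFAIP3 and BIRC3 lay above the whole range of their neighbours in all 3 comparisons.

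**Figure D1:**
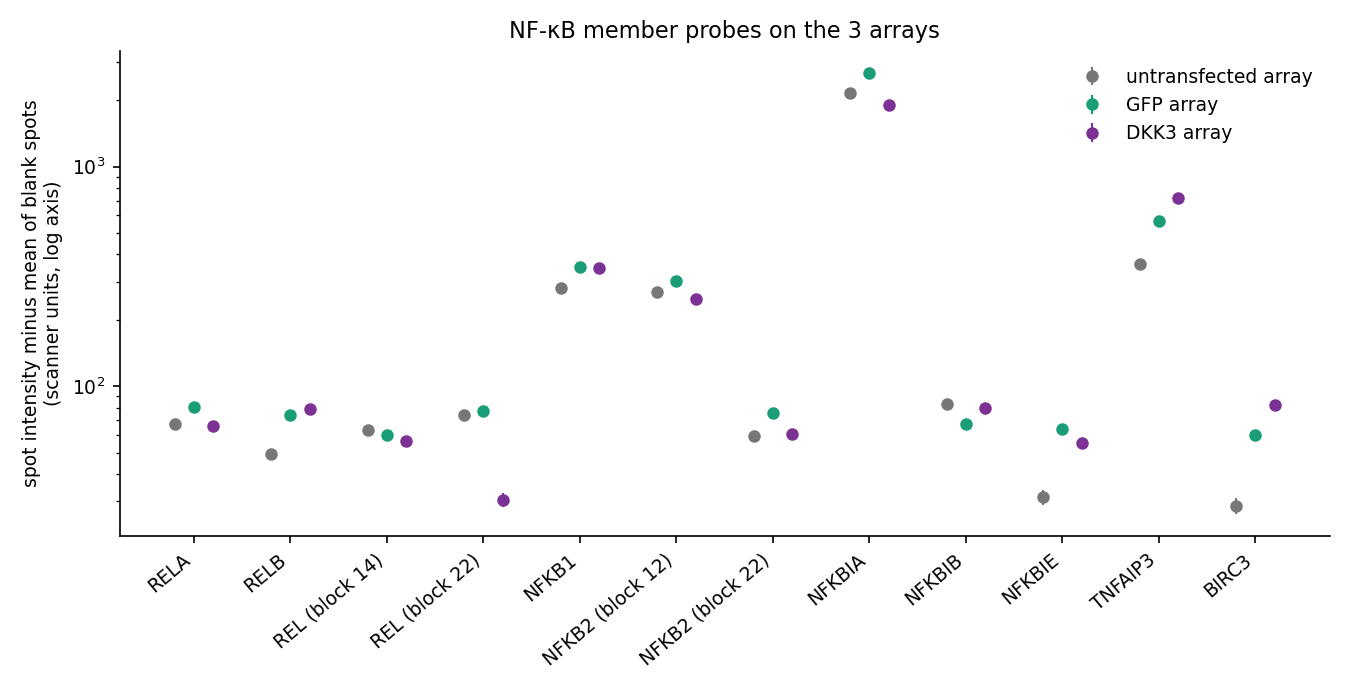
Spot intensity minus the mean of the blank spots (scanner units, log axis) for the 12 member probes on the 3 arrays, before normalization. Points are single spots and bars are the SD of the blank spots (2.34, 3.03 and 2.27 units). TNFAIP3 and BIRC3 step up from untransfected to GFP to DKK3, and the REL probe of block 22 is low on the DKK3 array alone.

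Among the Rel subunits that carry a transactivation domain, RELB was the 1 gene clearly above the untransfected array. RELB is the subunit of the alternative pathway and itself a known NF-κB target. Its spot in block 16 read 85.4, 102 and 111 units on the untransfected, GFP and DKK3 arrays. The untransfected reading was the lowest, and the other arrays lay closer to each other. The difference from untransfected cells was 0.27 with GFP and 0.45 with DKK3, and with the blank mean subtracted and no offset it was 0.52 and 0.82. The difference of 0.18 between DKK3 and GFP was smaller than the positive control's SD. Its 17 neighbouring spots reached at most 0.010 for GFP and 0.15 for DKK3 against untransfected, so RELB lay above all of them in both.

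RELA encodes the main transactivating subunit of the canonical pathway. It read 104, 109 and 97.9 units in the same order. These readings differed by 0.11 with GFP and 0.064 with DKK3 from untransfected cells after normalization, and by -0.047 between DKK3 and GFP, all less than the SD of the positive control. This held for DKK3 against untransfected under all 10 alternatives run, but not for the other comparisons. RELA with GFP was 0.15 with an offset of 16, 0.19 with the blank mean subtracted and 0.23 with the blanks of its own block subtracted. The last setting had no normalization between arrays, so it carries the dimness of the DKK3 array. In it DKK3 minus GFP was -0.27. RELA is therefore called neither higher nor lower.

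REL, the c-Rel subunit best known from lymphocytes, gave different readings on its probes. The probe of block 14 read 99.8, 88.2 and 88.5 units, with normalized differences of -0.081 for GFP and -0.013 for DKK3 against untransfected, inside the control's SD. The probe of block 22 read 110 and 105 units on the untransfected and GFP arrays and 62.6 on the DKK3 array. That single low reading gave -0.54 against untransfected and -0.53 against GFP. The spot lies in the first row of block 22, in blocks 22 to 24, where low readings on the DKK3 array gathered: 10 of 80 detected spots of that row were at -0.5 or below between DKK3 and GFP, or 12.5%, against 2.52% in blocks 22 to 24 and 0.279% in blocks 1 to 21. Its 16 neighbours had a median of -0.26 and a lowest value of -1.45 in this comparison, and the REL value lay inside their range. Relative to the neighbours' median the difference was -0.27. The part of the array position in the low value was not tested, and REL is not called lower here.

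The precursor genes NFKB1 and NFKB2 encode long proteins that are cut to the DNA-binding partners of the Rel subunits, and that act as inhibitors while uncut. NFKB1 read 316, 379 and 376 units on the untransfected, GFP and DKK3 arrays. The untransfected array was lowest, and the transfected arrays read alike. After normalization NFKB1 was above untransfected by 0.22 with GFP and 0.39 with DKK3. The 15 neighbouring spots reached at most 0.29 and 0.22, so the GFP value lay inside their range and the DKK3 value above it. The 0.17 between DKK3 and GFP was under the control's SD although above the 0.12 that its neighbours reached. Without normalization, with only the blanks of its own block subtracted, it was -0.025. The NFKB1 spot has the column and row of the NFKBIA spot printed 4 blocks later, and held 12.96%, 13.12% and 18.05% of the blank-corrected intensity of NFKBIA on the untransfected, GFP and DKK3 arrays. After normalization NFKBIA was lower with DKK3 than with GFP and NFKB1 was not, while in blank-corrected intensity NFKB1 read 350 and 344 units. Whether the spots share signal was not tested.

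NFKB2 read 304, 329 and 281 units on its probe of block 12 and 95.9, 104 and 93.1 units on its probe of block 22. On both probes GFP read highest. The normalized differences were 0.085 and 0.15 with GFP, 0.030 and 0.096 with DKK3, and -0.055 and -0.051 between DKK3 and GFP. Of these 6 values, the 0.15 of the block 22 probe exceeded the control's SD, and the other probe's GFP value did not. In these differences RELA and NFKB2 thus lay close to the untransfected array where RELB and NFKB1 lay above it. Beside neighbouring spots NFKB2 stood otherwise. With DKK3 the block 22 probe lay above its neighbours, which reached at most -0.018. It was 0.25 above their median, against 0.29 for NFKB1, but with GFP it lay inside their range. The block 12 probe lay above its neighbours with GFP, which reached at most 0.015, but inside their range with DKK3. The differences between genes were not tested.

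**Figure D2:**
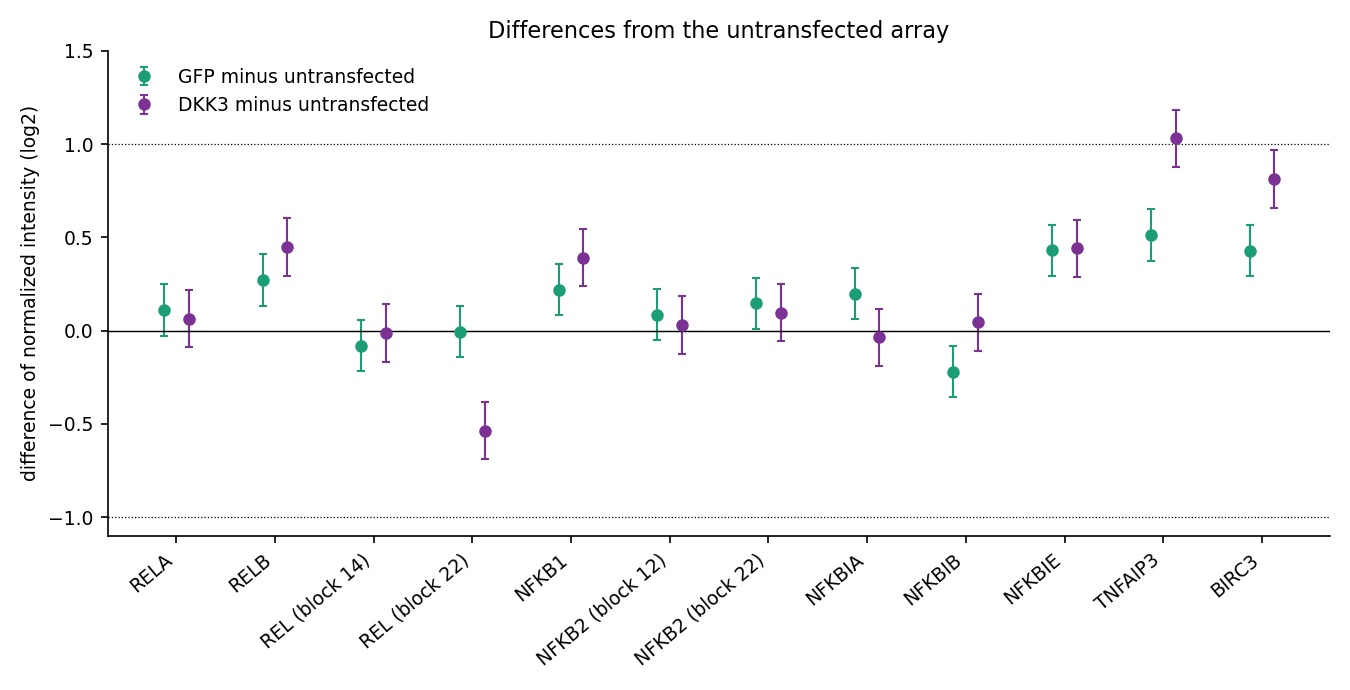
Log2 difference of normalized intensity from the untransfected array for each member probe, with GFP in green and DKK3 in purple. Bars are the SD of the positive control's log2 difference over 24 spots (0.137 and 0.154), a technical error within the arrays and not a spread between cultures. Dotted lines mark 2-fold, which TNFAIP3 alone passed, at 1.03 with DKK3.

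Of the inhibitors, NFKBIE was higher on both transfected arrays. NFKBIE encodes IκBε, a slower feedback inhibitor. It read 67.6 units without transfection, 91.9 with GFP and 87.5 with DKK3, so the transfected arrays stood together above the untransfected one. The difference was 0.43 with GFP and 0.44 with DKK3, and 0.011 between DKK3 and GFP. With the blank mean subtracted and no offset, the first pair of values was 0.97 and 0.99. The 15 neighbouring spots were themselves above 0, with medians of 0.12 and 0.19 and highest values of 0.62 and 0.72, and NFKBIE lay inside that range. Relative to the neighbours' medians it was higher by 0.31 and 0.26.

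NFKBIA encodes IκBα, the inhibitor that NF-κB renews within hours of its own release. It was the brightest member spot, at 2197, 2698 and 1938 units, with GFP highest and DKK3 lowest. The normalized difference was 0.20 with GFP and -0.036 with DKK3 against untransfected cells, and -0.23 between DKK3 and GFP. The spot lies in the first row of block 24. Its 19 detected neighbours had medians of -0.13 with GFP and -0.49 with DKK3 against untransfected, and of -0.29 between DKK3 and GFP. Relative to those medians NFKBIA was higher by 0.33 with GFP and by 0.46 with DKK3, and its difference between DKK3 and GFP was 0.058. The sign of the NFKBIA difference with DKK3 therefore depended on whether the surrounding spots were allowed for.

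NFKBIB encodes IκBβ, an inhibitor that is not known as a strong feedback target. It read 119 units without transfection, 95.2 with GFP and 112 with DKK3, so GFP was lowest. The difference was -0.22 with GFP and 0.045 with DKK3 against untransfected cells, and 0.27 between DKK3 and GFP. The first and last of these exceeded the SD of the positive control, but all 3 lay inside the range of the 19 neighbouring spots.

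**Figure D3:**
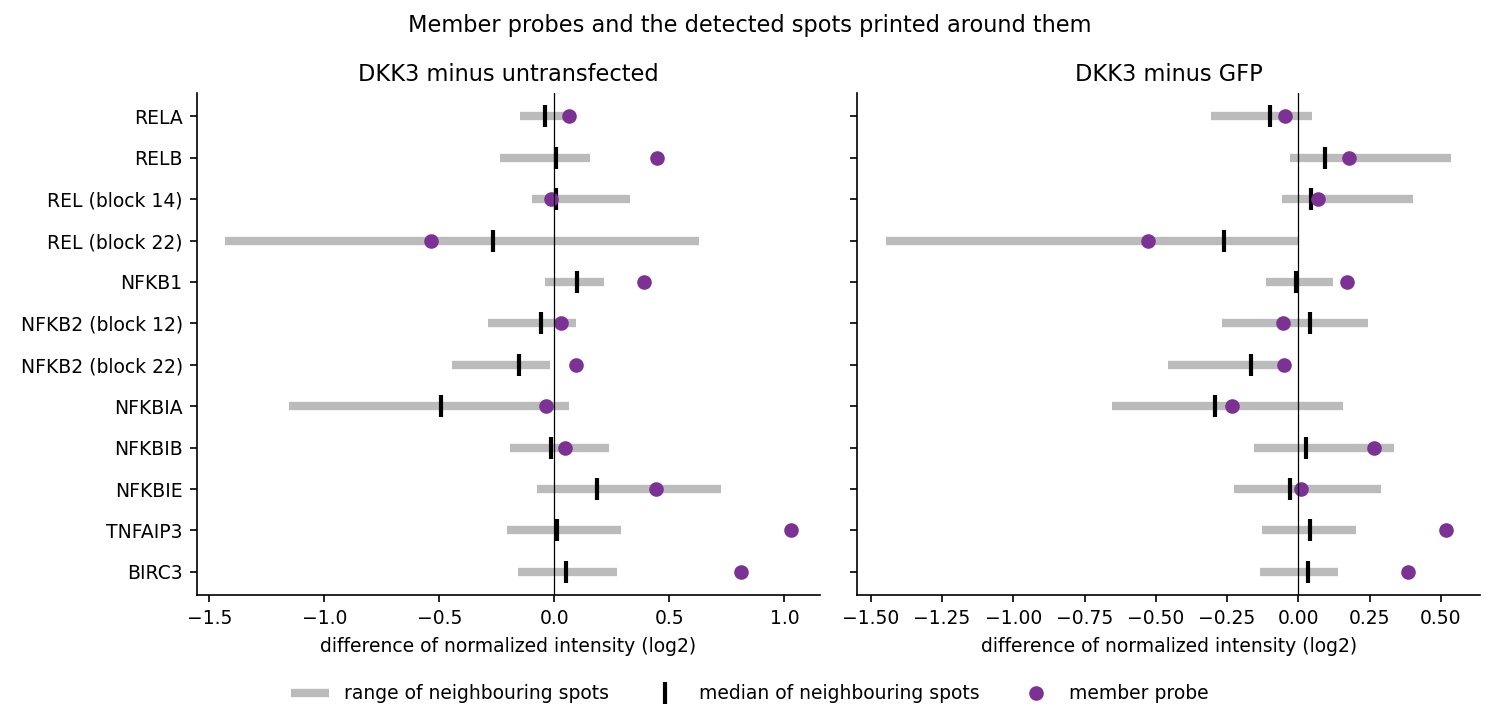
Log2 differences of the member probes (purple points) beside the detected spots up to 5 columns and 1 row away on the same block (grey bars for their range, black ticks for their median), for DKK3 minus untransfected on the left and DKK3 minus GFP on the right. TNFAIP3 and BIRC3 lie above all their neighbours in both panels, while the REL probe of block 22 and NFKBIA lie among neighbours with medians from -0.26 to -0.49.

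Over the group as a whole, all 12 probes were detected on all 3 arrays. With GFP 9 of 12 were above the untransfected array, against 48.3% of 17964 detected probes, with a median of 0.17 against -0.0030. With DKK3 9 of 12 were above it, against 47.0% of 18016, with a median of 0.080 against -0.0050. Between DKK3 and GFP 7 of 12 were above 0, against 49.2% of 17471, with a median of 0.039 against -0.0011. Both comparisons with untransfected cells share that array, and both comparisons of the DKK3 array share that one. No member was 2-fold higher with GFP, against 0.228% of all probes, or 2-fold lower, against 0.0278%. None was 1.5-fold higher with GFP either, against 0.54%. With DKK3, TNFAIP3 was the 1 member 2-fold above untransfected cells, against 0.222% of probes, and TNFAIP3 and BIRC3 were the 2 members 1.5-fold above, against 0.666%. No member was 2-fold below untransfected cells with DKK3, against 0.0722%, and at 1.5-fold in either direction the 2 members stood against 1.1%. Between DKK3 and GFP no member was 2-fold higher, against 0.120%, or 2-fold lower, against 0.137%, and none was 1.5-fold higher, against 0.292%, or lower, against 0.366%. Without the spots of blocks 22 to 24 the median with DKK3 against untransfected was 0.35 over 9 probes. In the authors' deposited values, where all probes had a median of -0.263, it was -0.0437, with 5 of 12 members above 0. The order untransfected, GFP, DKK3 from low to high was held by 5 of 12 probes, those of RELB, NFKB1, NFKBIE, TNFAIP3 and BIRC3, against 15.8% of the 16854 probes detected on all 3 arrays. For NFKBIE the upper step was 0.011 and turned to -0.027 with median scaling. Both steps exceeded the positive control's SD for TNFAIP3 and BIRC3 among the members, and for 0.581% of all these probes.

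Other genes of the pathway were grouped by role. Of 15 receptor and adaptor genes on the array, 6 were above 0 with GFP (background 47.3% of genes) and 8 with DKK3 (47.2%). Their medians were -0.010 and 0.0042. None reached 1.5-fold in either direction, against 0.550% of genes higher and 0.11% lower with GFP, and 0.717% and 0.439% with DKK3. CD40, a TNF receptor family member, had the largest difference, 0.32 with GFP and 0.40 with DKK3. BIRC2, the close paralogue of BIRC3, read 1132, 1066 and 1071 units and stood at -0.16 and 0.049. The 10 kinase genes had medians of -0.030 and 0.033, with IKBKE, a kinase of the interferon and NF-κB pathways, at 0.29 and 0.16. None of the subunit genes of the IκB kinase, CHUK, IKBKB and IKBKG, was beyond 0.21 with GFP or 0.11 with DKK3.

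Of 13 further negative regulators on the array 11 were detected, with 6 above 0 with GFP (background 47.3% of genes) and 5 with DKK3 (47.2%). None was at 1.5-fold, against 0.550% of genes higher and 0.11% lower with GFP, and 0.717% and 0.439% with DKK3. TNIP1, which binds the TNFAIP3 protein, read 109, 123 and 139 units and stood at 0.19 with GFP and 0.45 with DKK3, in the same order of arrays as TNFAIP3. Among the 3 atypical IκB genes NFKBIZ had the largest difference, 0.15 and 0.33 as the mean of its probes.

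The known secreted targets lay higher. Of 13 detected, 12 were above the untransfected array with GFP (background 47.3% of genes) and 11 with DKK3 (47.2%), with medians of 0.46 and 0.76. These medians were 1.03 and 1.51 with the blank mean subtracted and 0.75 and 1.24 in the authors' deposited values, and the GFP median was 0.31 without the filter on dim probes. With GFP 6 of them were 1.5-fold higher, against 0.550% of all genes, and with DKK3 8 were, against 0.717%. Since the members and pathway lists were chosen with earlier results of these data known, such contrasts with all genes are descriptions only. The neutrophil chemokines CXCL8, CXCL2 and CXCL1 stood at 1.31, 1.14 and 0.87 with GFP and at 2.03, 1.77 and 1.40 with DKK3. CXCL3 stood at 0.46 with GFP and 0.76 with DKK3. The cytokines CSF2, IL6, TNF and IL1A stood at 1.06, 1.04, 0.66 and 0.31 with GFP. With DKK3 they stood at 1.49, 1.36, 0.85 and 0.65. IL1B, whose spot is in block 23, was the 1 secreted target 1.5-fold lower with DKK3, at -0.81, against 0.439% of genes. With GFP it stood at -0.019. Between DKK3 and GFP, where 0.285% of genes were 1.5-fold higher, CXCL8 and CXCL2 were, at 0.72 and 0.63. CXCL1 and CXCL3 stood at 0.53 and 0.30, and CSF2, IL6, TNF and IL1A at 0.43, 0.32, 0.19 and 0.34. IL1B was 1.5-fold lower at -0.79, against 0.360%. In blocks 22 to 24, 2.52% of detected spots were at -0.5 or below in this comparison, against 0.279% in blocks 1 to 21. The part of the array position in the IL1B values was not tested, and no lower expression is read from them.

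Of 17 detected cellular targets, 15 were above 0 with GFP (background 47.3% of genes) and 15 with DKK3 (47.2%), with medians of 0.23 and 0.22. With GFP 1 of 17 was 1.5-fold higher, against 0.550% of genes, and with DKK3 2 were, against 0.717%. SOD2, the mitochondrial superoxide dismutase, was past that size on both arrays, at 0.79 with GFP and 0.74 with DKK3. The adhesion molecule gene ICAM1 read 99.2, 135 and 151 units and passed it with DKK3, at 0.65, but not with GFP, at 0.42. PLAU stayed below it as the mean of its probes, at 0.46 and 0.52, but the probes differed. Its block 2 probe stood at 0.76 with GFP and 0.86 with DKK3, and its brighter block 22 probe at 0.16 and 0.19. Between DKK3 and GFP the median of the cellular targets was 0.040, with 10 of 17 above 0 (background 50.3%), and none was at 1.5-fold. The DKK3 minus GFP difference of SOD2 was -0.050 and that of NFKBIE 0.011, beside 0.52 for TNFAIP3 and 0.38 for BIRC3.

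**Figure D4:**
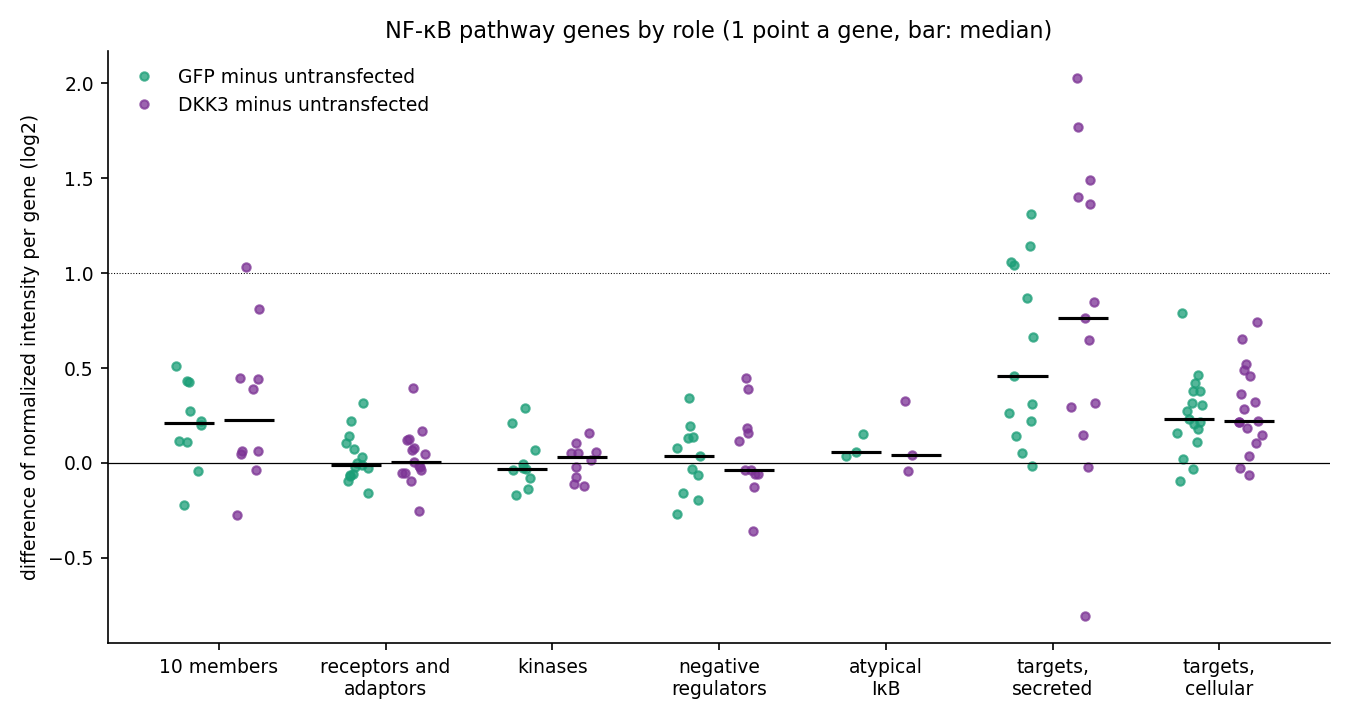
Log2 differences from the untransfected array for the 10 member genes and the other NF-κB pathway genes by role, 1 point for each detected gene, with GFP in green and DKK3 in purple and the median as a bar. The secreted targets have the highest medians, 0.46 and 0.76, while receptors, kinases and negative regulators lie around 0.

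The genes most like TNFAIP3 were sought by the distance between pairs of differences from the untransfected array, over 12917 genes detected on all 3 arrays. The nearest 5 were the stress-response factor gene DDIT3, at 0.57 with GFP and 0.96 with DKK3, the pattern-recognition protein gene PTX3 at 0.66 and 0.99, the growth factor gene HBEGF at 0.56 and 1.22, the activin subunit gene INHBA at 0.43 and 0.83, and the ephrin gene EFNA1 at 0.49 and 0.80. Each rested on 1 probe, and likeness over 3 arrays is a description of these arrays.

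TNFAIP3 and BIRC3 kept their direction in all 3 comparisons under each of 10 other settings of background, scaling and array position. The TNFAIP3 difference with DKK3 against untransfected ranged from 0.94 in the authors' deposited values to 1.14, so it fell on either side of 2-fold, and BIRC3 ranged from 0.76 to 1.68.

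**Figure D5:**
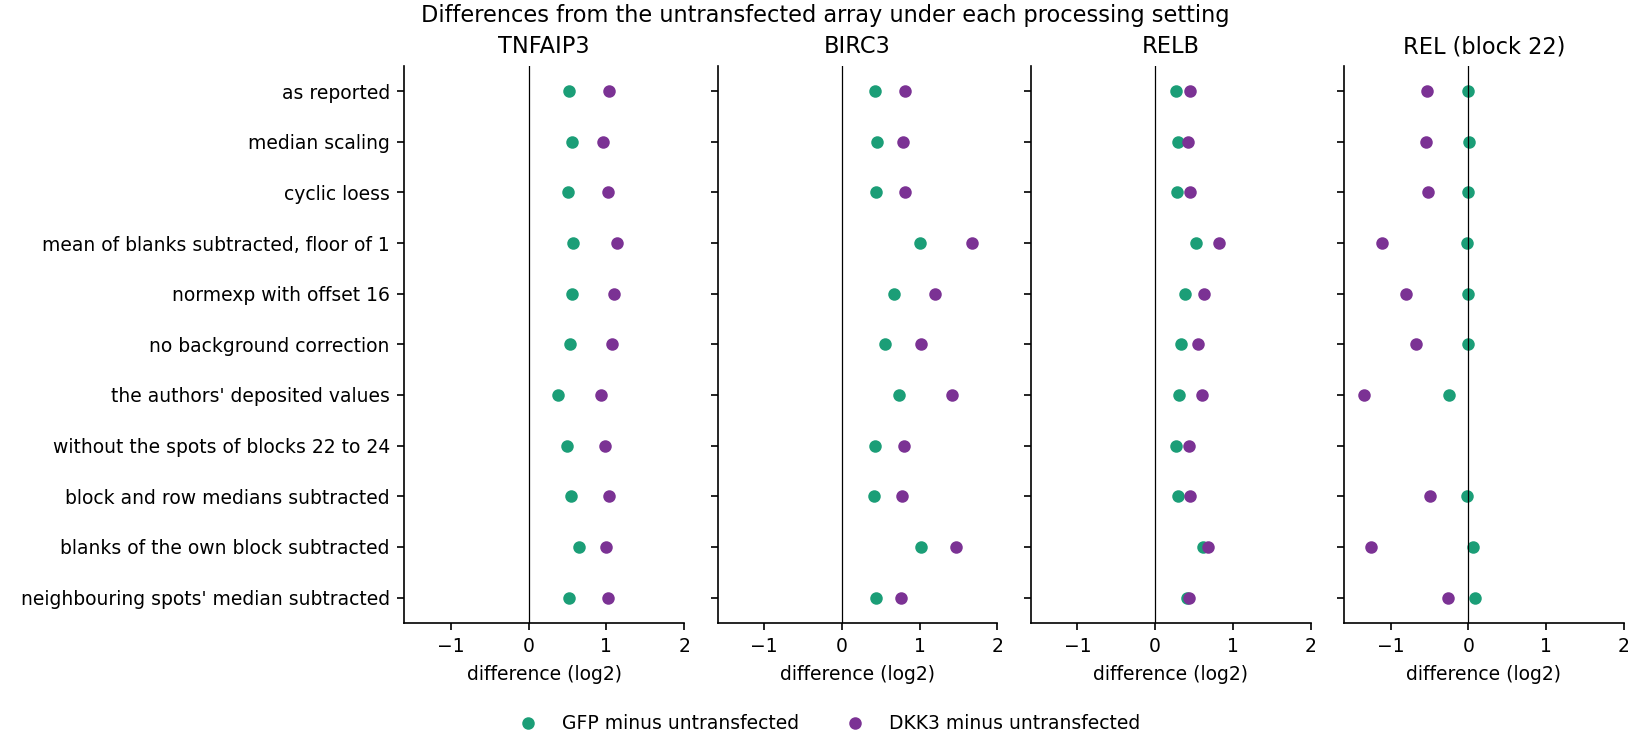
Log2 differences from the untransfected array for 4 member probes under the reported setting and each alternative, with GFP in green and DKK3 in purple. TNFAIP3 stays between 0.94 and 1.14 with DKK3, BIRC3 spreads from 0.76 to 1.68, and the REL probe of block 22 moves from -1.34 in the authors' deposited values to -0.27 relative to its neighbours, and has no value without blocks 22 to 24.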

How the data were processed

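Total RNA of 3 HSC-3 cultures was measured on 1 array each. Per the file headers, the deposited spot intensity is the median of each spot at 635 nm, merged by the authors from 3 scanner gains with least-squares lines. For the scanner, the sources used here do not name the software. The column headed as background was not subtracted, since it correlated with the spot column at 0.994 to 0.998. The authors' deposited value table, an intensity with a median of 25 on each array and no stated scaling, was used as an alternative.

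Spot intensities were processed with limma 3.58.1 under R 4.3.3: normexp background correction (offset 50), removal of controls and of 6 probes marked as faulty, and quantile normalization on the log2 scale. The pipeline was tested on simulated data, where it understated fold changes. Of 20231 probes with a symbol, 17234 were current in RefSeq (GRCh38.p14) and 2898 were updated through a unique synonym. Probes were kept apart for members and averaged when detected for other genes. Called means a rule of size, 2-fold or 1.5-fold, on probes detected on at least 1 array compared. Named genes were all member probes, each pathway gene at 1.5-fold or else the one with the largest DKK3 minus untransfected difference in its list, and the 5 genes nearest to TNFAIP3. BIRC2 and the IκB kinase genes complete their groups, and PLAU is named because its probes differed. 3 listed receptor and adaptor genes were not analysed here. The members and lists were chosen with earlier results of these data known. The comparison with neighbouring spots and with the blanks of the own block was chosen after seeing the data.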

Additional observations from a re-analysis of the deposited data

How the results depend on the processing

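No paired analysis was possible because each group is 1 array. Over 12 alternatives the median difference of the members ran from 0.039 to 0.23 for GFP minus untransfected and from 0.0024 to 0.15 for DKK3 minus GFP. For DKK3 minus untransfected the authors' deposited values gave -0.0437, with all probes at a median of -0.263 and 5 of 12 members above 0. It was 0.353 without blocks 22 to 24 and 0.253 with the neighbouring spots' median subtracted. The number of members at 2-fold with DKK3 against untransfected was 1 as reported (TNFAIP3, higher), beside 40 higher and 13 lower of all 18016 probes. In the rest of this paragraph, pairs in brackets are the probes higher and lower among all probes. It was 0 with median scaling (37 and 16) and without blocks 22 to 24 (34 and 1 of 15754). TNFAIP3 and BIRC3, both higher, were the 2 members with an offset of 16 (71 and 20) and without background correction (55 and 16). They were also the 2 at a 1.5-fold threshold (120 and 78). In the authors' deposited values the 2 were BIRC3, higher, and the REL probe of block 22, lower (95 and 349 of 17867). With the blank mean subtracted the number was 3 (161 and 89): TNFAIP3 and BIRC3 higher and the REL probe of block 22 lower. For GFP minus untransfected, BIRC3 was the 1 member with the blank mean subtracted, higher (135 and 54 of 17964). For DKK3 minus GFP, the REL probe of block 22 was the 1 member in that setting, lower (99 and 93 of 17471). It was also the 1 member for DKK3 minus GFP in the authors' deposited values, again lower (71 and 118 of 17401). Of 351 values of single member probes under the alternatives, 63 moved by more than the positive control's SD, and of 198 list medians 17 did. Of those 63 values, 19 came from the authors' deposited values, where 17 others did not move by that much. Another 18 came from subtracting the blanks of the own block, which was done without normalization between arrays. Of the 17 list medians, 10 came from the authors' deposited values. With the blank mean subtracted and no offset, at least 1 difference moved by more than that SD for RELB, NFKBIB, NFKBIE, BIRC3 and the REL probe of block 22.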

Other observations

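The member probes were printed in near alphabetical runs. NFKB1, NFKB2 and NFKBIA share column 70 and row 1 in blocks 20, 22 and 24, REL and RELB share column 3 and row 6 in blocks 14 and 16, and NFKBIB and NFKBIE share column 69 and row 1 in blocks 2 and 4. Across the whole array, spots printed 4 blocks before a spot brighter than 8000 units above the blanks had a median intensity above blanks of 248, 233 and 339 units on the untransfected, GFP and DKK3 arrays. At distances of 1, 2, 3, 5 and 6 blocks the medians lay between 7.64 and 47.0. Genes with similar names stand at these distances too, and the source of the difference was not tested.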
